A study of Mus musculus with 10 samples.

Results

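Erythroblasts that lack both the miR-144/451 microRNA cluster and the transcription factor Nrf2 were compared with wild type erythroblasts across all genes. Erythroblasts are nucleated cells on the way to becoming red cells, some still dividing and some already filling with hemoglobin. The comparison rests on 5 of the 10 RNA-seq libraries of the study, chosen by genotype: 3 double-null libraries (replicates 1, 2 and 3, labelled Nrf2/miR-144/451-/-) and 2 wild type libraries (replicates 1 and 3). The cells were taken from mouse spleen 11 days after 5-FU, a drug that kills dividing blood precursors and forces red cell production to restart. Every group received the drug, so no library shows untreated cells. The labels give C57BL/6 as the strain of every library, and they give neither the age of the mice nor which mouse, or how many, each library came from. The p-values therefore measure the spread between these libraries. Libraries of miR-144/451-null (n = 2) and Nrf2-null (n = 3) erythroblasts served to estimate that spread and to test where the double-null differed from either single null. The labels give the genotypes with no Cre driver or tissue restriction named, and how the erythroblasts were selected is known only as an isolation on magnetic beads.

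miR-144 and miR-451 are cut from 1 transcript that the erythroid factor Gata1 switches on, and they are among the most abundant microRNAs of the red cell lineage. They pair through their seed, bases 2 to 8, with sites in the 3' UTRs of messenger RNAs and lower the amount or the translation of those messages. Nrf2, the product of Nfe2l2, pairs with small Maf proteins at antioxidant response elements and switches on genes of glutathione, thioredoxin and detoxifying enzymes. Its partner Keap1 marks it for degradation while oxidants are low. The mature microRNAs are shown because the first group of results turns on their seeds, which are in capitals (RefSeq, GRCm38.p6).
mmu-miR-144-3p, chr11:78073047-78073066, + strand: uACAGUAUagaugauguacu
mmu-miR-451a, chr11:78073186-78073207, + strand: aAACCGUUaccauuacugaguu

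Library totals ranged from 13116764 to 14777399 counts in these 5 libraries and from 13087827 to 15131036 in all 10. Globin genes took 10.7%, 12.2% and 9.85% of counts in double-null and 7.37% and 8.44% in wild type. The groups did not overlap, but 3 libraries against 2 cannot give a two-sided exact permutation p below 0.2, the value found here. Mitochondrial genes took 1.31% ± 0.096 in double-null and 1.13% ± 0.004 in wild type (SD, n = 3 and 2; exact permutation p = 0.2). Xist, which marks female cells, had 7, 7 and 17506 counts in double-null and 22993 and 21421 in wild type, and the summed Y-linked genes had 5355, 4866 and 1 counts against 2 and 0. By these counts double-null replicates 1 and 2 were male, and double-null replicate 3 and both wild type libraries female. Sex and genotype are thus partly confounded, and double-null replicate 3 set alone against wild type is a check in which the sexes match. Every miR-144/451-null and Nrf2-null library was male by these counts, so only double-null held both sexes. A term for sex in the model therefore rests on the 3 double-null libraries. In effect it sets double-null replicate 3 against wild type again, and it is not a second check.

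The deleted microRNA checked the labels. Mir144 had 0 counts in each double-null library, against 12 and 17 counts in wild type. It was at least 4.75-fold lower in double-null, with a floor of 3 counts per library. Mir451a had 0 counts in every library, so mature or precursor miR-451 was not measured. Nfe2l2 had 843, 693 and 683 counts in double-null and 958 and 780 in wild type. A count over the whole gene does not show the deleted part and checks nothing about the Nrf2 genotype. The labelled cell type was checked by length-scaled levels, the deposited FPKM. Alas2, the first enzyme of heme synthesis, stood at 2562, 2911 and 2481 FPKM in double-null and 2068 and 2496 FPKM in wild type. The band 3 gene Slc4a1 stood at 4170, 3834 and 3899 FPKM in double-null and 3975 and 5129 FPKM in wild type. Cd3e, Adgre1 and Ncr1, markers of T cells, macrophages and NK cells, did not exceed 6.09 FPKM in any of the 5 libraries. Another macrophage gene, C1qa, reached 36.2 FPKM in double-null and 19.6 FPKM in wild type, with wild type inside the double-null range. The B cell gene Ms4a1 reached 2.75 FPKM in double-null and 20.8 FPKM in wild type, and the neutrophil gene S100a8 reached 284 FPKM in double-null and 71.7 FPKM in wild type. Erythroblast genes were thus the most abundant of those checked. Genes of other cells were present, and the levels of Ms4a1 and S100a8 differed between the groups.

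Of 14110 genes tested, 2427 (17.2%) passed the threshold, an adjusted p under 0.05 in edgeR's quasi-likelihood test over all 10 libraries. In double-null 1164 genes (8.25%) were higher and 1263 (8.95%) lower. Of the called genes, 416 were at least 2-fold higher and 802 at least 2-fold lower. The median log2 fold change over all tested genes was -0.02. Among the called genes 48.0% were higher. On library totals without TMM factors 803 were called higher and 1429 lower (36.0% higher), and the median over all genes was -0.11. The X and Y chromosomes held 74 of the called genes, 17.2% of the 431 tested there. The libraries of the 2 groups did not overlap for 7072 genes (50.1% of those tested), 3514 above and 3558 below wild type, and 2425 of the 2427 called genes were among them.

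With the sexes matched, double-null replicate 3 alone against wild type gave 710 calls (4.8% of 14778 genes tested in that fit), 314 higher (2.12%) and 396 lower (2.68%). The lone library was assumed to vary like the other groups. Of the 2427 called genes, 2425 were tested there and 641 were called again. Double-null replicate 3 is itself 1 of the 3 libraries behind the main calls. Double-null replicates 1 and 2 against wild type gave 1765 calls, 1024 higher and 741 lower. These comparisons share both wild type libraries, so their calls are not independent of each other. With a term for sex in the model, 560 genes were called, 308 higher and 252 lower.

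Reported targets of the 2 microRNAs were higher in part in double-null. Of 11 listed targets, 5 were called higher and 0 lower, with a median log2 fold change of 0.68, against 8.25% and 8.95% of all genes. Rac1, a small GTPase that remodels the actin skeleton, stood at 302, 292 and 276 CPM in double-null and 103 and 99.0 CPM in wild type. All 3 double-null libraries lay above both wild type libraries, and Rac1 was 2.87-fold higher (log2 fold change 1.52, SE 0.14, adjusted p = 0.000503). Rab14, a GTPase of endosomal traffic, stood at 182, 170 and 172 CPM in double-null and 94.8 and 94.5 CPM in wild type (log2 fold change 0.88, SE 0.14, adjusted p = 0.00287). Ywhaz, an adapter that holds phosphorylated FoxO3 in the cytoplasm, stood at 224, 245 and 235 CPM in double-null and 134 and 126 CPM in wild type (log2 fold change 0.85, SE 0.13, adjusted p = 0.00251). The ranges of these 3 genes did not overlap, and the largest difference among the listed targets was that of Rac1. Cab39, a scaffold of the kinase Lkb1, stood at 183, 144 and 169 CPM in double-null and 102 and 94.0 CPM in wild type (log2 fold change 0.75, SE 0.14, adjusted p = 0.00459). Cmtm6, a membrane protein, stood at 52.5, 52.8 and 59.3 CPM in double-null and 30.4 and 34.0 CPM in wild type (log2 fold change 0.77, SE 0.13, adjusted p = 0.00397).

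The same 5 targets passed the threshold in double-null replicate 3 alone. Each was also higher in double-null than in Nrf2-null, with adjusted p between 4.13e-05 and 0.00147, and none differed from miR-144/451-null at the threshold. Of the 6 targets not called, Tsc1, Mif, Gata2, Dicer1 and Cox10 had log2 fold changes between 0.05 and 0.68. Gata2 reached its value through double-null replicate 2, which had 15.6 CPM, while replicates 1 and 3 had 3.79 and 3.81 CPM and wild type 4.49 and 5.13 CPM. The list was drawn up with results of these libraries known and is no independent evidence of its direction. Leaving out 1 library at a time gave 4 to 6 targets called higher. The count was 4 without either wild type library, and Cmtm6 was lost without wild type replicate 1.

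**Figure D1:**
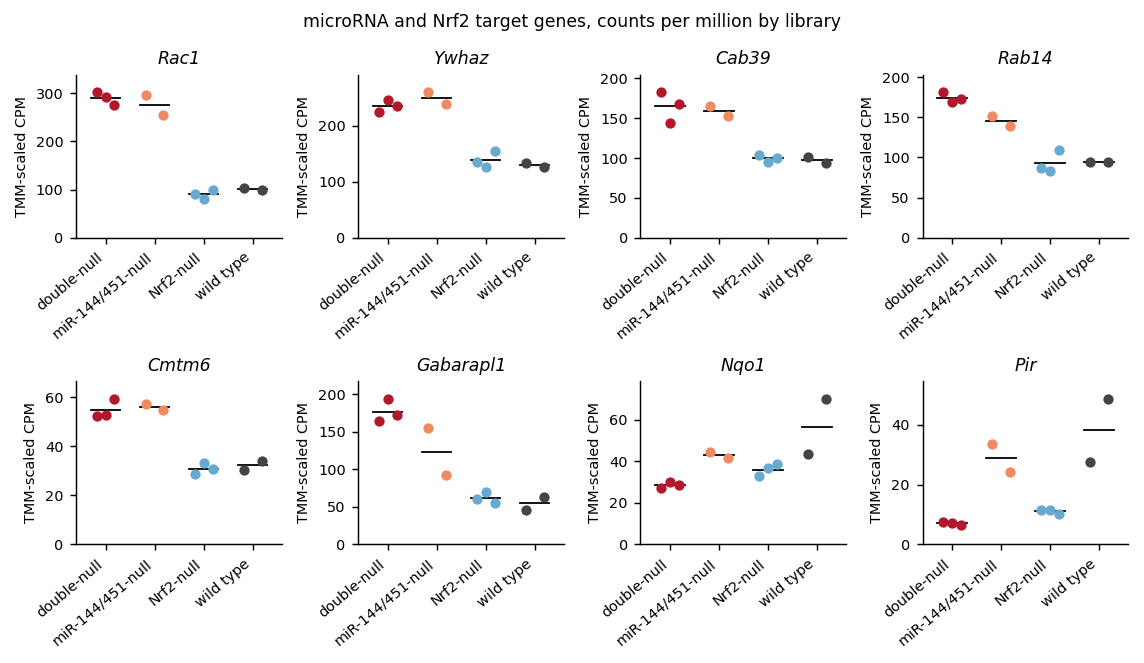
TMM-scaled CPM (y axes from 0) of 8 genes in each library, by genotype; points are libraries and lines group means. Rac1, Ywhaz, Cab39, Rab14 and Cmtm6 lie higher in double-null than in wild type, and Nqo1 and Pir lie lower.

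The sites behind these targets are shown in the 3' UTR sense strand of the longest GENCODE M21 transcript, with the 7 bases that pair with the seed in capitals. A 7-base match to miR-451a, AACGGTT, stood at bases 781 to 787 of the Rac1 UTR, 565 to 571 of the Ywhaz UTR and 111 to 117 of the Cab39 UTR. Cox10, which was not called, held the same match at 2 places, of which the one at bases 667 to 673 is shown. The UTRs of Rab14, Cmtm6, Tsc1 and Mif held no match to bases 2 to 8 of either microRNA. Other kinds of site, and the UTRs of other transcripts, were not searched. A 7-base match to miR-144-3p stood in the UTRs of Gata2 and Dicer1, neither of them called, and no called target on the list held one.
Rac1: gtaaagctttttAACGGTTaat
Ywhaz: ggtaagggcagaAACGGTTcac
Cab39: tgctgttaagtgAACGGTTttt
Cox10: gtggggattccaAACGGTTgcc

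Across the transcriptome, 227 of 11703 tested genes with a 3' UTR (1.94%) held a miR-451a match. Of these, 46 (20.3%) were called higher and 15 (6.61%) lower, with a median log2 fold change of 0.22. Over all genes with a UTR, 9.01% were called higher and 9.68% lower, with a median of -0.04. A miR-144-3p match, ATACTGT, was in 1560 genes (13.3%), of which 13.7% were called higher and 9.49% lower, with a median of 0.03. Genes with a match had longer UTRs, with a median of 2066 bases for miR-451a and 2579.5 for miR-144-3p against 1175 for all, and the part of UTR length was not tested. Bex4, Rnf103 and Eif4ebp2 are described from among the genes with a miR-451a match and were chosen after their values were seen. Bex4, an X-linked gene, stood at 271, 209 and 257 CPM in double-null and 29.0 and 32.1 CPM in wild type (log2 fold change 3.01, SE 0.23, adjusted p = 0.000241). Rnf103, a ubiquitin ligase of the endoplasmic reticulum, stood at 51.1, 35.2 and 27.6 CPM in double-null and 6.31 and 6.26 CPM in wild type. Eif4ebp2, which binds and blocks the cap-binding factor of translation, stood at 270, 308 and 272 CPM in double-null and 119 and 122 CPM in wild type. In none of these 3 genes did the groups overlap.

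FoxO3, which Ywhaz retains in the cytoplasm when phosphorylated, drives antioxidant and autophagy genes during erythroid maturation. Foxo3 itself stood at 1346, 1375 and 1001 CPM in double-null and 893 and 1306 CPM in wild type, ranges that overlap. Of 16 genes of the factor and its reported targets, 3 were called higher and 1 lower, against 8.25% of all genes higher and 8.95% lower, with a median log2 fold change of 0.18. These are few genes, and the calls are described singly. The 3 higher ones act in autophagy. Gabarapl1, a protein conjugated to autophagosome membranes, stood at 165, 194 and 172 CPM in double-null and 46.0 and 63.9 CPM in wild type (log2 fold change 1.69, SE 0.23, adjusted p = 0.0015). Its 3' UTR also holds 1 match to the miR-451a seed, and whether FoxO3 or miR-451a takes part in its level was not tested. Ulk1, the kinase that starts autophagy, stood at 1070.0, 1000.0 and 769.5 CPM in double-null and 410 and 598 CPM in wild type (log2 fold change 0.91, SE 0.24, adjusted p = 0.0269). Map1lc3b, the classical autophagosome marker, stood at 514, 601 and 508 CPM in double-null and 315 and 386 CPM in wild type (log2 fold change 0.63, SE 0.18, adjusted p = 0.0392).

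Sesn3, a stress-induced brake on mTORC1, was the gene called lower, at 6.31, 17.0 and 5.90 CPM in double-null and 39.7 and 52.5 CPM in wild type (log2 fold change -2.24, SE 0.42, adjusted p = 0.00728). The antioxidant targets Cat, Gpx1 and Sod2 were not called, with log2 fold changes of -0.34, -0.24 and 0.06. Gabarapl1 and Sesn3 were called again in double-null replicate 3 alone. Ulk1 and Map1lc3b were not, and their calls were lost without wild type replicate 1, double-null replicate 1 or double-null replicate 2. Map1lc3b was also lost without wild type replicate 3, Nrf2-null replicate 2 or double-null replicate 3, and Sesn3 without wild type replicate 3.

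Nrf2 targets did not move as a block. Of 35 tested genes in 4 lists, 3 were called higher and 3 lower, against 8.25% of all genes higher and 8.95% lower. The counts were thus near the background, and the 6 calls are described as single genes. Pir, which encodes the nuclear protein pirin, stood at 7.57, 7.14 and 6.62 CPM in double-null and 27.7 and 48.7 CPM in wild type (log2 fold change -2.42, SE 0.24, adjusted p = 0.000503). The quinone reductase Nqo1 stood at 27.2, 30.0 and 28.6 CPM in double-null and 43.4 and 70.1 CPM in wild type (log2 fold change -0.99, SE 0.18, adjusted p = 0.00544). Gsr, which reduces oxidised glutathione, stood at 53.8, 47.4 and 47.6 CPM in double-null and 59.8 and 96.7 CPM in wild type (log2 fold change -0.66, SE 0.20, adjusted p = 0.0406). In these 3 genes each double-null library lay below both wild type libraries.

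The 3 called higher were Prdx1, Tkt and Sqstm1. Prdx1, a peroxiredoxin that removes hydrogen peroxide, stood at 111, 109 and 139 CPM in double-null and 67.1 and 84.7 CPM in wild type (log2 fold change 0.66, SE 0.18, adjusted p = 0.0293). Tkt, the transketolase of the pentose phosphate pathway, stood at 459, 423 and 486 CPM in double-null and 316 and 304 CPM in wild type (log2 fold change 0.56, SE 0.14, adjusted p = 0.0202). Sqstm1, the autophagy receptor p62, stood at 771, 880 and 666 CPM in double-null and 297 and 420 CPM in wild type (log2 fold change 1.11, SE 0.25, adjusted p = 0.0131). Each of the 3 was also higher in double-null than in Nrf2-null, at an adjusted p of 0.000663 for Prdx1, 0.000668 for Tkt and 0.0186 for Sqstm1.

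The enzymes that make glutathione were not called. Gclc stood at 338, 273 and 302 CPM in double-null and 381 and 363 CPM in wild type, and Gclm at 693, 719 and 646 CPM in double-null and 785 and 855 CPM in wild type. The ranges did not overlap, but the adjusted p was 0.293 for Gclc and 0.305 for Gclm. Hmox1, which breaks down heme, stood at 20.4, 67.3 and 74.6 CPM in double-null and 46.9 and 41.2 CPM in wild type, with wild type inside the double-null range. The counts and median log2 fold changes were 1 higher and 1 lower of 13 glutathione and thioredoxin genes (-0.26), 0 higher and 2 lower of 8 quinone, detoxification and export genes (-0.40), 1 higher of 6 NADPH-supplying genes (0.11) and 1 higher of 8 heme, iron and regulator genes (0.28). Of the 6 calls, that of Pir held in double-null replicate 3 alone and without each of the 10 libraries in turn. The other 5 were not called in double-null replicate 3 alone, and Prdx1 and Tkt were not called on library totals. Nqo1 was lost without wild type replicate 3. Sqstm1 was lost without wild type replicate 1, Tkt without either wild type library and Prdx1 without either or without double-null replicate 3. Gsr was lost without wild type replicate 3, Nrf2-null replicate 1 or any double-null library.

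The element to which Nrf2 binds was searched as TGACNNNGC on both strands from 250 bases before to 50 bases after each RefSeq gene start. It stood in 12.4% of 32851 promoters and in 38.7% of the 31 genes of the Nrf2 lists that have an entry, against 17.1% of the 9769 tested genes with one. Of the 12 listed genes with a match, Pir and Prdx1 were called and the other 10 were not, namely Abcc4, G6pdx, Gclm, Mafg, Me1, Mgst1, Pgd, Srxn1, Txnrd1 and Ugdh. The sequence TGACTCAGC stood in Pir, Prdx1 and Me1, the cytosolic malic enzyme, which had at most 1.06 CPM in these 5 libraries. These 3 matches are shown with the element in capitals and on the strand that carries it (GRCm38.p6, - strand of each). Pir held a second match within its window. A match is a description of the letters and not a measured binding site.
Pir, chrX:164269207-164269235: tttgggggagTGACTCAGCctctctatgc
Prdx1, chr4:116685456-116685484: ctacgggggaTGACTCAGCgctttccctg
Me1, chr9:86695902-86695930: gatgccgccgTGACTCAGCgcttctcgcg

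Erythroid transcription factors were lower in part. Of 18 genes, 6 were called lower and 0 higher, against 8.95% of all genes lower, with a median log2 fold change of -0.45. Klf1, which switches on adult globin and most of the late erythroid programme, stood at 273, 210 and 299 CPM in double-null and 430 and 577 CPM in wild type (log2 fold change -0.95, SE 0.18, adjusted p = 0.0053). Gfi1b, a repressor needed for erythroid and megakaryocytic maturation, stood at 62.7, 44.0 and 74.6 CPM in double-null and 147 and 167 CPM in wild type (log2 fold change -1.38, SE 0.20, adjusted p = 0.00179). Klf3, a repressor that Klf1 switches on, stood at 447, 321 and 295 CPM in double-null and 588 and 857 CPM in wild type (log2 fold change -1.03, SE 0.22, adjusted p = 0.00995). Nfe2, the partner of small Mafs at the globin locus control region, stood at 425, 408 and 398 CPM in double-null and 513 and 816 CPM in wild type (log2 fold change -0.70, SE 0.20, adjusted p = 0.0344). In each of the 4 the double-null libraries lay below wild type.

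Klf13 and Bcl11a, a repressor of embryonic globin, were the other 2 called lower, with log2 fold changes of -0.66 and -0.86. Gata1 did not differ beyond the spread, at 336, 294 and 329 CPM in double-null and 302 and 379 CPM in wild type. Klf1, Klf3, Gfi1b and Nfe2 were also below their Nrf2-null levels in double-null, and none of them differed from miR-144/451-null at the threshold. Gfi1b and Klf3 were called in double-null replicate 3 alone. The count was 2 without wild type replicate 3 or with a term for sex, and 3 without Nrf2-null replicate 1 or double-null replicate 2. Klf1 and Nfe2 were lost without wild type replicate 3, and Nfe2 also without double-null replicate 3.

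Genes of the hemoglobin machinery gave few calls, which are described singly. None of the 6 tested globin genes was called in edgeR, where 2 were higher and 1 lower at an unadjusted p under 0.05. Hba-a1 stood at 35530, 41280 and 31900 CPM in double-null and 21000 and 27550 CPM in wild type, and Hbb-bs at 55780, 57720 and 46170 CPM in double-null and 31480 and 42550 CPM in wild type. The ranges did not overlap, and the adjusted p was 0.106 for Hba-a1 and 0.165 for Hbb-bs. Counts of Hba-a1 and Hba-a2, and of Hbb-bs and Hbb-bt, are uncertain because these gene pairs are near-identical. The embryonic gene Hbb-bh1 was at 0.297, 0 and 0.504 CPM in double-null and 1.03 and 3.09 CPM in wild type (adjusted p = 0.0503). DESeq2 called 2 globin genes higher and 1 lower.

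Of 13 genes of heme synthesis, 1 was called in each direction, against 8.25% of all genes higher and 8.95% lower. This is near the background, as is the same count among the 13 iron genes below. Slc25a39, a mitochondrial carrier of glutathione, stood at 1249, 1499 and 1094 CPM in double-null and 517 and 823 CPM in wild type (log2 fold change 0.93, SE 0.22, adjusted p = 0.0162). Cpox, an enzyme late in the pathway, had a log2 fold change of -0.52 (SE 0.15, adjusted p = 0.039), and its call was lost in 7 of the 10 fits that each left out 1 library. Of 13 iron genes, Tfr2, the receptor that senses iron-loaded transferrin, was called higher, at 138, 116 and 138 CPM in double-null and 86.7 and 67.2 CPM in wild type (log2 fold change 0.76, SE 0.16, adjusted p = 0.0082). Steap3, which reduces endosomal iron, was called lower, at 43.4, 43.2 and 41.4 CPM in double-null and 95.3 and 69.5 CPM in wild type (log2 fold change -0.95, SE 0.15, adjusted p = 0.00287). Both were called in double-null replicate 3 alone. Tfr2 was lost without wild type replicate 3 and Slc25a39 without wild type replicate 1.

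Genes of the red cell membrane and its skeleton were lower in part. Of 22, 5 were called lower and 0 higher, against 8.95% of all genes lower, and the median log2 fold change was -0.32. Among them were Dmtn, which bundles actin, Add3, Gypc and Xk. Xk, which carries the Kx blood group antigen, stood at 129, 102 and 117 CPM in double-null and 167 and 221 CPM in wild type (log2 fold change -0.74, SE 0.16, adjusted p = 0.0108). Slc4a1 was not called, with a log2 fold change of -0.13. The count was 12 on library totals, and 0 without wild type replicate 3, with a term for sex, or in double-null replicate 3 alone. It was 1 to 3 without any double-null library or without Nrf2-null replicate 1 or 2. Of 17 genes of Epo receptor signalling and survival, Pim2, a survival kinase, was called lower, at 11.8, 13.8 and 8.78 CPM in double-null and 25.1 and 27.3 CPM in wild type (log2 fold change -1.19, SE 0.19, adjusted p = 0.00261). Pim2 was the 1 call of that list, a share near the 8.95% of all genes called lower. Epor had a log2 fold change of -0.40 (adjusted p = 0.0736).

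**Figure D2:**
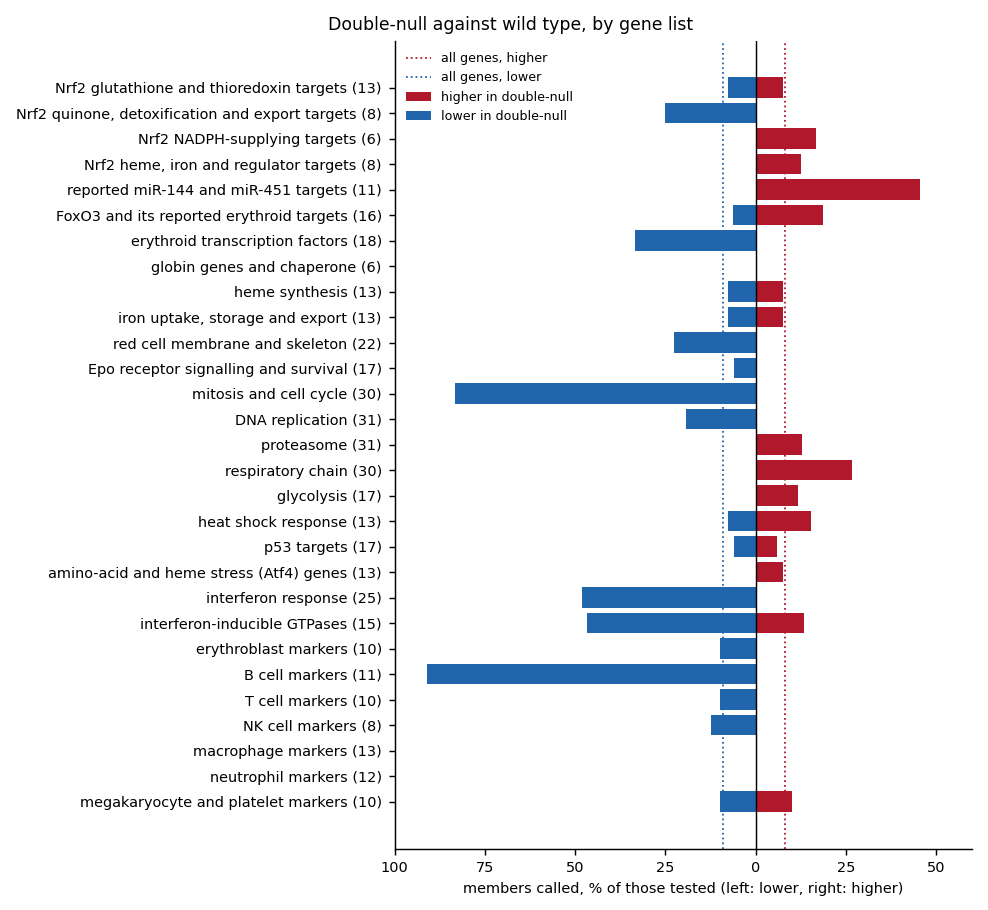
Share of the tested members of each list called higher (red, right) or lower (blue, left) in double-null against wild type, in percent, with the number tested in brackets. Dotted lines mark the shares of all genes, 8.25% higher and 8.95% lower. Mitosis and B cell lists reach furthest left and the microRNA targets furthest right.

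Genes of mitosis formed the group with the most calls. Of 30, 25 were called lower and 0 higher, with a median log2 fold change of -0.92, against 8.95% of all genes lower. Cenpf, a kinetochore protein, stood at 263, 222 and 197 CPM in double-null and 629 and 827 CPM in wild type, 3.2-fold lower (log2 fold change -1.68, SE 0.18, adjusted p = 0.000503). Nusap1, which bundles spindle microtubules, stood at 178, 181 and 153 CPM in double-null and 389 and 578 CPM in wild type (log2 fold change -1.50, SE 0.18, adjusted p = 0.000769). Aurka, a kinase of the spindle poles, stood at 99.3, 88.7 and 92.8 CPM in double-null and 191 and 210 CPM in wild type (log2 fold change -1.10, SE 0.12, adjusted p = 0.000526). The groups did not overlap in these 3 genes, and the double-null libraries lay close to each other. Kif20a, a kinesin of cell division, stood at 62.4, 51.2 and 60.5 CPM in double-null and 128 and 145 CPM in wild type (log2 fold change -1.23, SE 0.13, adjusted p = 0.000526).

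Cdk1, the kinase that starts mitosis, and Foxm1, a factor that drives its genes, had log2 fold changes of -1.21 (SE 0.17) and -1.13 (SE 0.18). Cdk1 stood at 127, 94.7 and 115 CPM in double-null and 237 and 281 CPM in wild type. Mki67, which coats mitotic chromosomes, stood at 5765, 4149 and 4212 CPM in double-null and 7897 and 9379 CPM in wild type (log2 fold change -0.88, SE 0.21, adjusted p = 0.019). Cdc20, Cdc25c, Kif11, Ndc80 and Top2a were not called, with log2 fold changes between -0.47 and -0.13. In double-null replicate 3 alone 15 of the 30 were called lower, with a list median of -0.96, and the count was 15 also with a term for sex and without wild type replicate 3. Cenpf, Nusap1, Aurka and Kif20a were called under each of these. The 4 were also below their Nrf2-null levels in double-null, and none differed from miR-144/451-null at the threshold.

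**Figure D3:**
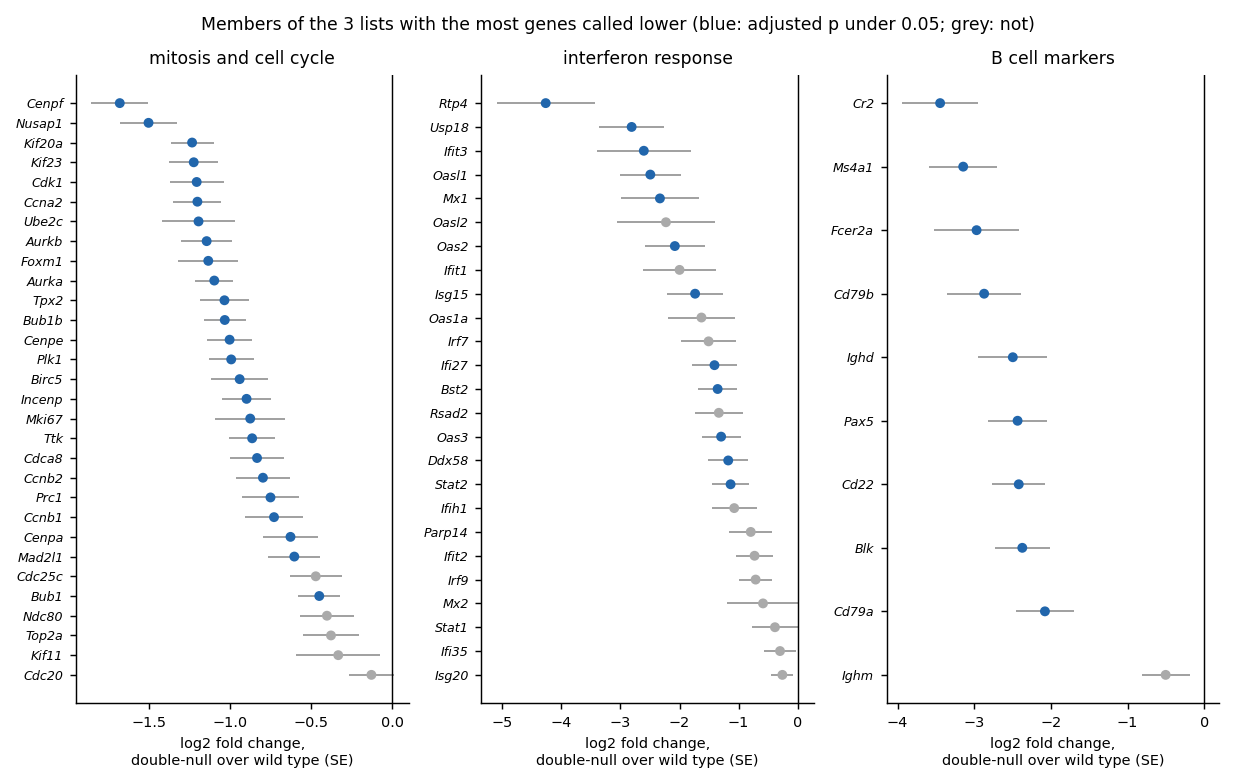
Log2 fold change, double-null over wild type, of tested members of the mitosis, interferon response and B cell lists (10 of the 11 B cell markers), with its SE as a bar (x axes differ between panels). Blue points passed the threshold and grey did not; no member shown lies above 0.

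Of 31 DNA replication genes, 6 were called lower, 0 higher and 25 were not called, against 8.95% of all genes lower. The list median was a log2 fold change of -0.39. Rrm2, the regulated subunit of ribonucleotide reductase, stood at 483, 298 and 616 CPM in double-null and 1118 and 1291 CPM in wild type (log2 fold change -1.37, SE 0.24, adjusted p = 0.00378). Orc1, a subunit of the origin recognition complex, stood at 31.0, 23.3 and 29.7 CPM in double-null and 70.2 and 67.2 CPM in wild type (log2 fold change -1.29, SE 0.19, adjusted p = 0.00198). Tk1, Gins3, Cdc45 and Lig1 were the other 4 called lower. Mcm2, a subunit of the replicative helicase, had a log2 fold change of -0.32 and Pcna, the sliding clamp, one of -0.45, neither called. The list median was -0.14 in double-null replicate 3 alone, where Orc1 and Rrm2 were called. Leaving out wild type replicate 1 left 2 calls, leaving out wild type replicate 3 left 3, and a term for sex left 1.

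Nuclear genes of the respiratory chain were higher in part. Of 30, 8 were called higher and 0 lower, against 8.25% of all genes higher, with a median log2 fold change of 0.31. Ndufb5, a subunit of complex I, stood at 13.4, 12.2 and 15.8 CPM in double-null and 6.91 and 6.02 CPM in wild type (log2 fold change 1.09, SE 0.22, adjusted p = 0.00789). Uqcrc2, a core subunit of complex III, stood at 130.0, 120.4 and 135 CPM in double-null and 71.9 and 74.0 CPM in wild type (log2 fold change 0.82, SE 0.15, adjusted p = 0.0056). Atp5a1, the alpha subunit of ATP synthase, stood at 808, 675 and 836 CPM in double-null and 508 and 476 CPM in wild type (log2 fold change 0.65, SE 0.14, adjusted p = 0.0111). Ndufa1, Ndufa2, Sdhc and Cox5a were also among those called. In double-null replicate 3 alone 5 of the 30 were called higher, as with a term for sex. Leaving out wild type replicate 1 gave 2 calls, and leaving out wild type replicate 3 gave 4.

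Proteasome genes gave 4 calls of 31, each higher, against 8.25% of all genes higher, a share near the background. They were Psmb4, Psmd4, Psmd6 and Psmd8, with log2 fold changes of 0.54 to 0.66, and the list median was 0.25. The count was 0 without wild type replicate 1, and 1 in double-null replicate 3 alone or with a term for sex. In glycolysis Hk1, the hexokinase of red cells, was called higher, at 1131, 1028 and 1079 CPM in double-null and 589 and 693 CPM in wild type (log2 fold change 0.75, SE 0.16, adjusted p = 0.00942). Aldoa, an aldolase, was the other call of 17 annotated identifiers, and its counts are uncertain because a second identifier with the same symbol was not called. Both were lost without wild type replicate 1 and in double-null replicate 3 alone.

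Among stress genes, Hspa5, the chaperone of the endoplasmic reticulum, stood at 2800, 2362 and 2052 CPM in double-null and 755 and 616 CPM in wild type (log2 fold change 1.81, SE 0.46, adjusted p = 0.0255). Hsf1, the factor that drives heat shock genes, was called higher and Dnajb1, a cytosolic co-chaperone, lower, with log2 fold changes of 0.67 and -0.70. Among 17 p53 targets Trp53inp1 was called higher (log2 fold change 0.82) and Btg2, a brake on proliferation, lower (-0.74), while Cdkn1a and Mdm2 were not called, at -0.44 and 0.38. Among 13 genes of the Atf4 response Ddit4, an inhibitor of mTORC1, was called higher (1.21). Against 8.25% of all genes higher and 8.95% lower, these lists gave few calls, which are described singly. None of these 6 calls held in double-null replicate 3 alone. Hspa5, Hsf1, Dnajb1, Trp53inp1 and Ddit4 were lost without either wild type library, and Btg2 without wild type replicate 3. Without double-null replicate 1 Hspa5 and Trp53inp1 were lost, without replicate 2 Trp53inp1 and Ddit4, and without replicate 3 Dnajb1 and Btg2. Hsf1 was not called on library totals.

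Of 25 interferon-stimulated genes, 12 were called lower, 0 higher and 13 were not called, against 8.95% of all genes lower. The list median was a log2 fold change of -1.36, and 22 had no overlap between the groups, against 25.2% of all genes below wild type. Rtp4 stood at 1.04, 1.75 and 2.81 CPM in double-null and 41.1 and 31.1 CPM in wild type, 19.2-fold lower (log2 fold change -4.27, SE 0.83, adjusted p = 0.0104). Usp18, which removes the ubiquitin-like Isg15 and dampens interferon signalling, stood at 5.50, 10.9 and 5.11 CPM in double-null and 44.6 and 55.8 CPM in wild type (log2 fold change -2.81, SE 0.55, adjusted p = 0.0102). Isg15 stood at 155, 278 and 169 CPM in double-null and 514 and 823 CPM in wild type (log2 fold change -1.74, SE 0.48, adjusted p = 0.0364). Double-null replicate 2 was the highest double-null library in Usp18 and Isg15 and still below wild type.

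The calls of the list depended on single libraries. They numbered 0 without wild type replicate 1, 2 without wild type replicate 3, 4 without double-null replicate 1 and 3 without double-null replicate 3. They numbered 19 without either miR-144/451-null library, and 0 in double-null replicate 3 alone or with a term for sex, although the list median was -1.62 in double-null replicate 3 alone. Usp18, Oasl1, Rtp4 and Bst2 were below their Nrf2-null levels in double-null, with log2 fold changes of -1.40 to -4.43, and none differed from miR-144/451-null at the threshold. B cell markers were lower in the same libraries, with a summed level of 357, 787 and 407 CPM in double-null and 1285 and 1637 CPM in wild type, and their part in the interferon genes was not tested.

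The interferon-inducible GTPases, which act on the vacuoles of intracellular pathogens, were lower in part. Of 15, 7 were called lower, Irgm1, Ifi47, Gbp3, Gbp4, Gbp5, Gbp7 and Gbp9, and 2 higher, Igtp and Irgm2. Over all genes 8.95% were called lower and 8.25% higher, so the 2 higher calls are few and are described singly. Gbp9 stood at 3.64, 10.02 and 5.61 CPM in double-null and 21.7 and 27.7 CPM in wild type (log2 fold change -1.94, SE 0.38, adjusted p = 0.00794). Igtp stood at 143, 283 and 149 CPM in double-null and 60.03 and 79.5 CPM in wild type (log2 fold change 1.46, SE 0.31, adjusted p = 0.0115). Irgm2 stood at 109, 223 and 117 CPM in double-null and 45.5 and 73.2 CPM in wild type. In both of these higher genes each double-null library lay above wild type. The single nulls also lay above wild type in Igtp, at 319.5 and 229.3 CPM in miR-144/451-null and 249.5, 261.6 and 312.2 CPM in Nrf2-null. Igtp was called also in double-null replicate 3 alone, and neither Igtp nor Irgm2 without either wild type library or with a term for sex. The calls lower numbered 0 without wild type replicate 3, 2 without wild type replicate 1 or double-null replicate 3, 4 without double-null replicate 1 and 11 without double-null replicate 2. Gbp7, Gbp9 and Ifi47, the lower genes among the 4 members of lowest p, lost their calls with a term for sex. The list median was a log2 fold change of -1.31, and -1.64 in double-null replicate 3 alone. The GTPase genes are close relatives, so reads may have been shared among them.

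**Figure D4:**
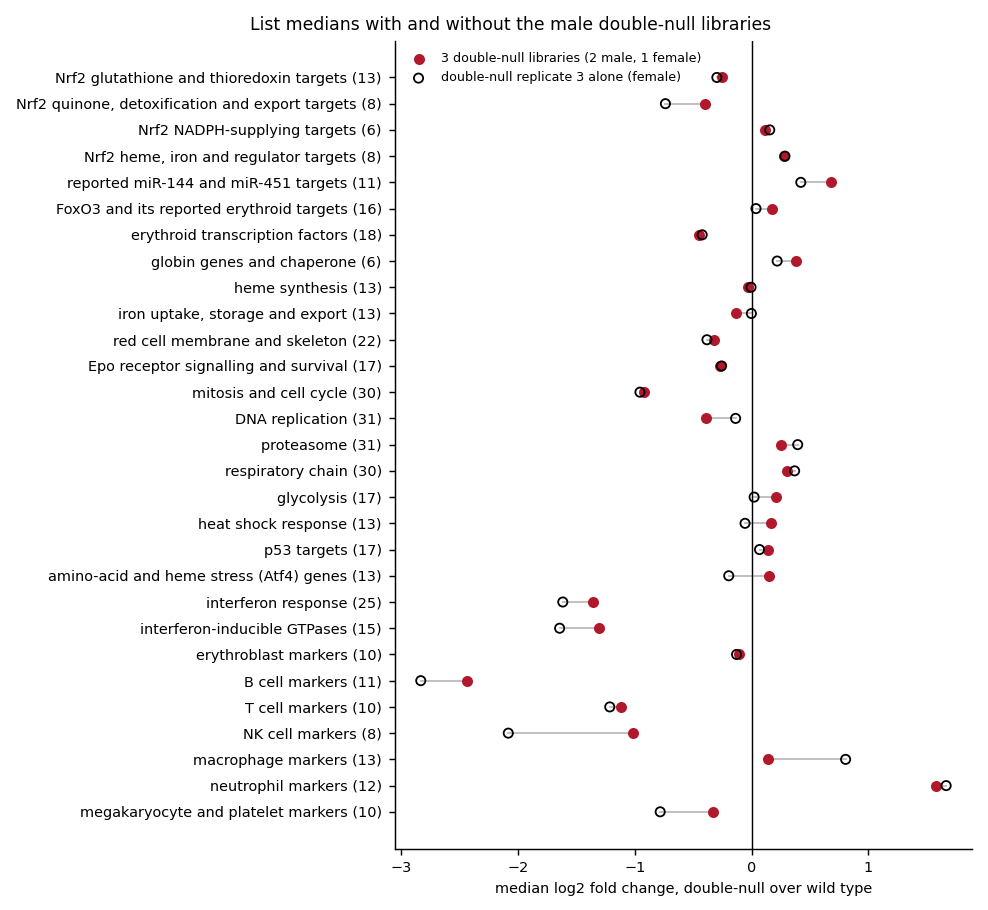
Median log2 fold change, double-null over wild type, of each list (number of tested genes in brackets), with 3 double-null libraries (filled) and with double-null replicate 3 alone (open), which is female like both wild type libraries. The B cell list stands at -2.43 and -2.83, mitosis at -0.92 and -0.96, and the Atf4 and heat shock lists change sign.

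Markers of other blood cells differed between the groups. The B cell list was the lowest: 10 of 11 genes were called lower, against 8.95% of all genes, with a median log2 fold change of -2.43. Each double-null library had a lower sum than either wild type library, and no marker was at 0. Ms4a1, which encodes CD20, stood at 8.76, 17.8 and 9.07 CPM in double-null and 72.7 and 137 CPM in wild type (log2 fold change -3.14, SE 0.44, adjusted p = 0.00259). Cd22, an inhibitory receptor of B cells, stood at 14.6, 27.6 and 20.2 CPM in double-null and 87.9 and 135 CPM in wild type (log2 fold change -2.42, SE 0.35, adjusted p = 0.00246). Ighm, at 239, 567 and 281 CPM in double-null and 556 and 471 CPM in wild type, was the marker not called. In bulk RNA fewer B cells and less RNA per B cell cannot be told apart. In double-null replicate 3 alone 7 of the 11 were called lower, and 7 to 11 were called when any 1 library was left out. The 4 markers with the smallest p were below their Nrf2-null levels in double-null, and none differed from miR-144/451-null at the threshold.

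Neutrophil markers lay on the opposite side without a call. Their summed level was 1342, 1253 and 1359 CPM in double-null and 472 and 514 CPM in wild type, and 10 of 12 had no overlap between the groups, against 24.9% of all genes above wild type. Their median log2 fold change was 1.58 and none passed the threshold in edgeR, where 7 were higher at an unadjusted p under 0.05. The count was 9 without the low-count filter, 8 without Nrf2-null replicate 3, 8 in the fit of only the 5 libraries, 4 without Nrf2-null replicate 2 and 4 in DESeq2. S100a8, a calcium-binding granule protein, stood at 148, 138 and 196 CPM in double-null and 44.6 and 50.5 CPM in wild type (adjusted p = 0.117). The spread of these genes among the Nrf2-null libraries, from 210 to 1345 summed CPM, enters the shared error of the fit.

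T cell markers summed to 17.4, 83.3 and 43.2 CPM in double-null and 127 and 85.6 CPM in wild type, with Lck called lower of 10 and lost without either wild type library or double-null replicate 3. NK cell markers summed to 9.80, 30.5 and 8.35 CPM in double-null and 22.3 and 20.2 CPM in wild type, with Ncr1 called lower of 8 and lost without wild type replicate 1, double-null replicate 1 or double-null replicate 3. Klrb1c was at 0 in double-null replicate 1. Macrophage markers summed to 96.8, 248 and 426 CPM in double-null and 227 and 215 CPM in wild type, with none of 13 called in edgeR, 1 lower at an unadjusted p under 0.05, and 2 called higher and 1 lower without the low-count filter. Megakaryocyte and platelet markers summed to 155, 201 and 150 CPM in double-null and 93.3 and 130 CPM in wild type. In that list Itga2b, the integrin alpha chain of platelets, was called higher (log2 fold change 1.28) and Gp9 lower (-0.90). Both calls were lost without wild type replicate 1, that of Itga2b also without double-null replicate 2 and that of Gp9 without wild type replicate 3. The 10 measured erythroblast markers summed to 151500, 159400 and 129400 CPM in double-null and 94950 and 132700 CPM in wild type, ranges that overlap, and Klf1 was the one called. Over all genes 8.25% were called higher and 8.95% lower, so calls of 1 gene per direction in these lists are near the background. The part of these other cells in any gene called above or below was not tested.

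**Figure D5:**
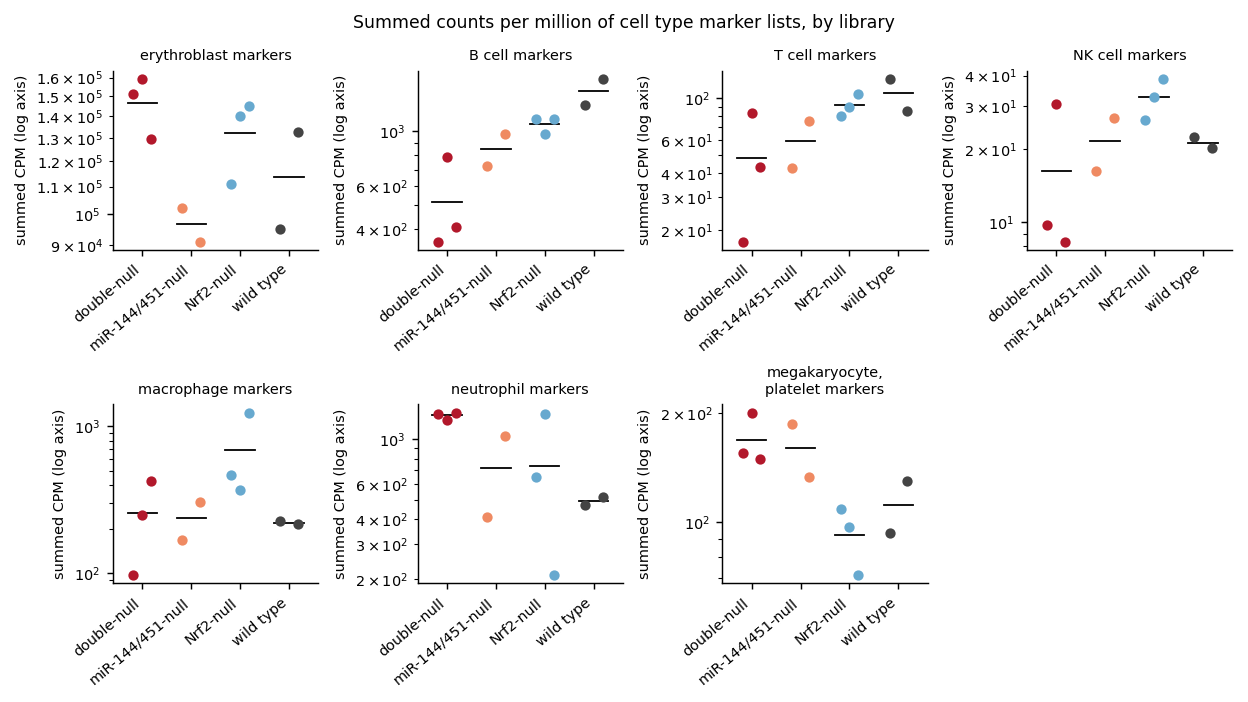
Summed TMM-scaled CPM (log axes that differ between panels) of each cell type marker list in every library, by genotype; points are libraries and lines group means. The B cell sum is lower in double-null than in wild type without overlap, and the neutrophil sum is higher.

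By size of change, the genes higher in double-null were led by Capn11, a calpain protease. It had 13.7, 0.531 and 19.1 CPM in double-null and 0 in both wild type libraries, at least 52.1-fold higher with the floor of 3 counts per library, and it was low in double-null replicate 2. Myo15, an unconventional myosin of hair cells, stood at 95.5, 90.9 and 37.3 CPM in double-null and 3.88 and 2.36 CPM in wild type (log2 fold change 4.55, SE 0.46, adjusted p = 0.000658). It was also above wild type in miR-144/451-null, at 29.3 and 29.5 CPM, and in Nrf2-null, at 57.6, 53.9 and 75.8 CPM. Csf2rb2, a beta chain of the interleukin-3 receptor, stood at 27.9, 43.2 and 33.2 CPM in double-null and 4.31 and 3.82 CPM in wild type (log2 fold change 3.09, SE 0.35, adjusted p = 0.000715). Fam131a and Cwc22 were also called under each alternative tried. The others in order were Ighv2-6, Slpi, Asprv1, Cdk5rap1, C4b, Il1r2 and Lama5, with log2 fold changes of 2.89 to 5.30. Their calls were each lost without wild type replicate 1 and without wild type replicate 3, as was that of Capn11. Without miR-144/451-null replicate 3 the calls of Capn11, Ighv2-6, Slpi, Asprv1, C4b and Lama5 were lost too, and without miR-144/451-null replicate 1 those of Ighv2-6, Slpi, Asprv1 and Lama5. Ighv2-6, Asprv1 and Lama5 were lost without double-null replicate 1 and without replicate 3. Asprv1 was lost also without double-null replicate 2, in double-null replicate 3 alone and, like Capn11, with a term for sex. Without an Nrf2-null library the calls of Ighv2-6 and Asprv1 (replicate 1) and of Lama5 (replicate 2) were lost, and that of Lama5 was lost also on library totals. Ighv2-6 is an immunoglobulin variable gene, and the summed neutrophil markers were also higher in double-null without overlap. The part of neutrophils, B cells or other cells in any of these genes was not tested.

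In 4 of these genes double-null replicate 3 stood far above the other two double-null libraries. Slpi stood at 16.6, 47.2 and 158 CPM in double-null and 6.73 and 2.85 CPM in wild type. Ighv2-6 stood at 4.83, 3.57 and 25.98 CPM in double-null and 0.182 and 0.407 CPM in wild type. C4b stood at 2.30, 4.71 and 17.2 CPM in double-null and 0.970 and 0.976 CPM in wild type. Lama5 stood at 14.3, 16.0 and 54.9 CPM in double-null and 2.67 and 5.04 CPM in wild type. The size of each of these changes thus rests largely on 1 library.

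By size of change, the genes lower in double-null were led by Rtp4. After it came Ifi206, Cr2, Cxcr5, Kmo, Ms4a1, Spib, Fam129c, Fcer2a, Il9r, Slfn5 and Slfn8, with log2 fold changes of -2.88 to -4.07. Cr2 and Fcer2a encode receptors for complement and IgE on B cells, and Spib is an Ets factor of B and plasmacytoid dendritic cells. Ifi206 stood at 0.223, 1.44 and 0.504 CPM in double-null and 11.0 and 13.4 CPM in wild type (log2 fold change -4.07, SE 0.50, adjusted p = 0.00092). Slfn8, a Schlafen family gene, stood at 0.891, 0.987 and 2.88 CPM in double-null and 11.2 and 12.3 CPM in wild type (log2 fold change -2.88, SE 0.43, adjusted p = 0.00198). Ifi206, Cxcr5, Ms4a1, Spib and Slfn8 were called under each alternative tried. Rtp4, Kmo, Fam129c, Fcer2a, Il9r and Slfn5 were lost with a term for sex, and Rtp4, Cr2, Fam129c and Il9r in double-null replicate 3 alone. Rtp4 was lost without wild type replicate 1, and Fcer2a, Fam129c and Il9r without wild type replicate 3. Fam129c and Il9r were lost also without double-null replicate 3, and Fam129c without double-null replicate 1.

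The double-null was then tested against each single null, which asks where losing both differed from losing 1. Against Nrf2-null, 3848 genes (27.3%) were called, 2023 higher (14.3%) and 1825 lower (12.9%). Against miR-144/451-null, 9 genes (0.0638%) were called, 7 higher (0.0496%) and 2 lower (0.0142%). The miR-144/451-null group had 2 libraries. By Xist and Y-linked counts every single-null library was male and double-null replicate 3 female, so sex is partly confounded here too. The gene lists were not tested against either single null as groups, and their medians are a description. The mitosis list had a median log2 fold change of -1.13 against Nrf2-null and -0.17 against miR-144/451-null. The respiratory chain had medians of 0.51 against Nrf2-null and 0.06 against miR-144/451-null. A missed threshold does not show that double-null and miR-144/451-null were alike, and the interferon list still had a median of -0.87 against miR-144/451-null.

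Pir was the one listed Nrf2 target that differed from miR-144/451-null. Its level was 7.57, 7.14 and 6.62 CPM in double-null, 33.6 and 24.2 CPM in miR-144/451-null, and 11.7, 11.6 and 10.2 CPM in Nrf2-null. Each double-null library lay below every library of the other 3 genotypes (log2 fold change against miR-144/451-null -2.02, SE 0.24, adjusted p = 0.0101). Against Nrf2-null the log2 fold change was -0.65 and the adjusted p 0.0517.

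Cwc22, a splicing factor, had the smallest p against wild type. Its level was 235, 213 and 227 CPM in double-null, 32.7 and 28.3 CPM in miR-144/451-null, 302, 329 and 315 CPM in Nrf2-null, and 28.8 and 23.9 CPM in wild type (log2 fold change against wild type 3.09, SE 0.15, adjusted p = 5.26e-06). Eif3j2, a subunit of a translation initiation factor, stood at 37.3, 32.3 and 37.4 CPM in double-null, 8.09 and 7.33 CPM in miR-144/451-null, 36.8, 61.2 and 37.6 CPM in Nrf2-null, and 7.52 and 7.65 CPM in wild type. In both genes the libraries of the genotypes without Nrf2 were high and the rest low, without overlap. Cwc22 and Nfe2l2 lie on the same chromosome, 2, and whether sequence carried along with the Nrf2 allele takes part in the difference was not tested.

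Naip5 and Naip2, sensors of bacterial proteins, were higher than in miR-144/451-null but did not pass the threshold against wild type. Naip5 stood at 2.23, 4.18 and 4.32 CPM in double-null, 0 in both miR-144/451-null libraries, and 5.03 and 6.02 CPM in wild type. Naip2 stood at 7.20, 8.05 and 6.12 CPM in double-null, 0.219 and 0.469 CPM in miR-144/451-null, and 8.61 and 8.22 CPM in wild type. Here the miR-144/451-null libraries were the low ones. The other calls against miR-144/451-null were Gm10031, Gm15601 and Hist1h4n, higher, and Rps19-ps6, lower. Naip and histone genes and pseudogenes share sequence with close copies, so their counts are uncertain.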

How the data were processed

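RNA was measured by bulk RNA-seq of spleen erythroblasts from 4 genotypes in 10 libraries, and the double-null against wild type comparison uses 5 of them. The labels' protocols name magnetic beads, Trizol, 1 µg of total RNA and a VAHTS library kit. Raw counts per Ensembl gene in 1 table, and FPKM in a table per library, are as the authors deposited them. Per the submitters' processing notes, the tools were HISAT2 2.1.0, Bowtie2 2.2.3, TopHat2 and CASAVA, with mm9 as the build and no roles given. How reads were counted, by which tool, annotation and strand, is not given in the sources used here, so overlapping and antisense genes cannot be told apart. Each of 196970 deposited FPKM values equalled the count divided by 1 length per gene and the library total, within 0.1%. FPKM served only in the check of the labelled cell type, to set levels of different genes side by side. FPKM carry no TMM factors, also where that check sets the 2 groups side by side.

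Symbols came from GENCODE M21, which matched 99.8% of identifiers. Counts were filtered with filterByExpr, scaled with TMM and tested with edgeR 4.0.16 (R 4.3.3) in a robust quasi-likelihood fit with 1 coefficient per genotype and 6 residual degrees of freedom. P-values were adjusted by Benjamini-Hochberg over 14110 genes, with a threshold of 0.05. CPM are TMM-scaled. Standard errors are the log2 fold change over the square root of F. Shares of counts were compared by two-sided exact permutation tests. The procedure was tested on simulated data. No 2 replicates were the same library, since chi-square per degree of freedom was 15.5 to 27.2.

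By rule the text names the targeted genes, for each list its 4 genes of lowest p, and the 12 largest changes in each direction among called autosomal genes whose groups do not overlap and whose mean reaches 5 CPM, predicted genes and pseudogenes aside. Further list members are given to describe a list, and others are said to be chosen after their values were seen. The members, lists and this rule were chosen with earlier results of these data known. Floors cover counting error only. Alternatives were other scalings, no low-count filter, DESeq2 1.42.0, the 5 libraries only, a replicate block, a term for sex, double-null replicate 3 alone, no globin genes, no robust option and each library left out. The term for sex and double-null replicate 3 alone are in effect the same check, since only double-null held both sexes. A few genes that the rule would name are not reported here.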

Additional observations from a re-analysis of the deposited data

How the results depend on the processing

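Against wild type, 2427 genes were called, and 771 to 2644 when each library was left out in turn, with 338 to 1322 higher and 341 to 1375 lower. The lowest totals were 771 without wild type replicate 3, 964 without wild type replicate 1 and 1573 without double-null replicate 1. With a term for sex 560 genes were called (308 higher, 252 lower), and in double-null replicate 3 alone 710 (314 higher, 396 lower). Library totals gave 803 higher and 1429 lower, DESeq2 1414 and 1482, no low-count filter 1589 and 1616, and the 5 libraries only 1163 and 1016. Against Nrf2-null the counts were 2645 to 3928 with 1 library left out and 1640 with double-null replicate 3 alone. Against miR-144/451-null they were 4 to 78 with 1 library left out, 743 without the low-count filter, 175 with DESeq2, 16 with double-null replicate 3 alone, 6 on library totals and 4 with the replicate block. The cause of these changes was not tested. Deviations of same-numbered libraries from their group means correlated between -0.111 and 0.287, and between -0.102 and -0.044 for double-null with wild type. Libraries of different number gave -0.287 to 0.286. In a group of 2 libraries the deviations are exact opposites, so these values cannot decide whether replicate numbers pair the libraries. With the replicate block 1799 genes were called, 810 higher and 989 lower.

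Of 91 named genes called against wild type, 26 were called under every alternative run. The others lost the call most often with a term for sex (50), without wild type replicate 3 (46), without wild type replicate 1 (43) and in double-null replicate 3 alone (42). The Y-linked Uty turned to -2.30 with a term for sex and to -2.31 in double-null replicate 3 alone, and Kdm5d against Nrf2-null to -11.45 in double-null replicate 3 alone, which is female. Of 8099 values of named genes under alternatives, 182 changed sign in genes called under neither setting and are not listed as reversals. Genes whose libraries do not overlap numbered 7072 on TMM-scaled CPM and 6603 on library totals. Depth limits genes of a few counts such as Mir144.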

Other observations

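Genes of vesicle traffic were higher in part in double-null. These lists were chosen after their values were seen, and their counts are a description. Of 8 tested genes of the COPI coat, which carries cargo back from the Golgi, 4 were called higher and 0 lower, against 8.25% of all genes higher, with a median log2 fold change of 0.47. Copa, its alpha subunit, stood at 287, 276 and 286 CPM in double-null, 272 and 251 CPM in miR-144/451-null, 106, 106 and 103 CPM in Nrf2-null, and 102 and 113 CPM in wild type (log2 fold change against wild type 1.40, SE 0.12, adjusted p = 0.00042). Both genotypes without the microRNAs were high and the rest low, without overlap. Of 10 COPII genes 2 were called higher, among them Sar1b, the GTPase that starts the coat (1.22). Of 32 genes with a Vps symbol, a name taken from yeast genes of vacuolar protein sorting, 9 were called higher and 0 lower, led by Vps53 (1.44) and Vps54 (1.27). The 9 include Vps72 (0.57), a subunit of chromatin-remodelling complexes that does not sort cargo. Of 15 protein-coding V-ATPase genes, whose proton pump acidifies lysosomes, 5 were called higher, among them Atp6v1a (1.32). Of 6 ADP-ribosylation factors Arf1 was the one called higher (1.11). In double-null replicate 3 alone, where 2.12% of all genes were called higher, the calls numbered 3 of the COPI, 1 of the COPII, 3 of the Vps, 1 of the V-ATPase and 1 of the ADP-ribosylation factor genes.

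Other genes were singled out after their values were seen. Il1r1, a receptor of interleukin-1, stood at 185, 188 and 189 CPM in double-null, 70.8 and 81.0 CPM in miR-144/451-null, and 27.6 and 22.8 CPM in wild type (log2 fold change against wild type 2.89, SE 0.23, adjusted p = 0.000241). Against miR-144/451-null its adjusted p was 0.072. Ccnf, a cyclin of the F-box family, stood at 50.7, 46.9 and 69.2 CPM in double-null and 185 and 217 CPM in wild type. Mxd3, a partner of Max, stood at 15.1, 11.2 and 19 CPM in double-null and 68.6 and 96.2 CPM in wild type. Cxcr4, the receptor that holds precursors in the marrow, stood at 39.2, 42.5 and 39.1 CPM in double-null and 115 and 167 CPM in wild type. In these 4 genes the double-null and wild type libraries did not overlap.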
